A study of Homo sapiens with 48 samples.

Results

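T24 is a human bladder carcinoma cell line known for an activating mutation in the proto-oncogene HRAS. Its state without drug was described here from RNA-seq gene counts of the 3 T24 libraries given DMSO, the solvent, for 4 days. They are among 24 DMSO libraries, all labelled day 4, and 48 libraries in all. These 3 libraries were set against the DMSO libraries of the other 7 bladder cancer lines, HT1197, HT1376, KU1919, SW780, 639V, TCCSUP and VMCUB, each of which has 3 libraries and was taken as 1 unit. The remaining 24 libraries come from the same 8 lines after 4 days in 250 nM CPI-0209, an inhibitor of the histone methyltransferase EZH2, and are used below only where they are named. T24 was grown in McCoy's 5A medium, against MEM for HT1197, HT1376 and TCCSUP, DMEM for SW780, VMCUB and 639V, and RPMI1640 for KU1919, with serum and antibiotics in each. No other line had McCoy's 5A, so line and medium cannot be told apart. The labels do not say whether the 3 libraries of a line came from separate cultures, and p-values over libraries reflect only how these samples vary, a spread that may be technical.

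The urothelium that lines the bladder is a layered epithelium, in which basal cells carry KRT5, KRT14 and TP63, and luminal cells carry uroplakins under the control of PPARG, GATA3 and FOXA1. Carcinoma lines can lose this epithelial programme, held by CDH1, EPCAM, GRHL2 and ESRP1, and express mesenchymal genes such as VIM and ZEB1. Cell lines also keep transcription factors of other organs at levels that differ widely from line to line.

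The T24 DMSO libraries held 49358560, 44991775 and 30943898 counts in replicates 1, 2 and 3, within the range of 29759605 to 49358560 over the 24 DMSO libraries. The 3 pairs of T24 libraries differed by more than counting noise, with a chi-square per degree of freedom of 8.73 to 54.8, so none was counted as a copy of another. Levels are given in CPM, the share of a library's counts on a common scale, after scaling of the libraries by the trimmed mean of M-values.

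The 3 T24 DMSO libraries stood apart from each other in 1 group of genes, and this touches every statement on epithelial genes. The basal keratin gene KRT5 had 69.1, 21.6 and 0.882 CPM in replicates 1, 2 and 3, and KRT6A, another keratin of stratified epithelia, had 62.6, 19.3 and 0.817 CPM. GRHL2, an epithelial transcription factor, had 4.08, 0.948 and 0.0981 CPM, ESRP1, an epithelial splicing factor, had 4.02, 1.41 and 0.196 CPM, and TP63 had 3.03, 1.34 and 0.262 CPM. In each of these genes replicate 1 was highest and replicate 3 lowest. The 3 T24 libraries with CPI-0209 had 1.42, 2.04 and 1.29 CPM of KRT5 and 0.134, 0.141 and 0.267 CPM of GRHL2, near replicate 3. In all, 197 of 18643 genes tested were at least 2-fold higher in replicate 1 than in replicate 3 (on CPM with an offset of 0.5), 21 were 2-fold lower, and replicate 2 lay between them for 183 of the 197. VMCUB was at least 10-fold above T24 replicate 3 in 178 of the 197 genes (90.4%, against 3.75% of all genes tested), and the median excess of replicate 1 over replicate 3 was 4.67% of the VMCUB level. HT1197, HT1376, KU1919, SW780, 639V and TCCSUP passed the same 10-fold mark in 110, 119, 134, 123, 43 and 80 of these genes, against 3.42% (639V) to 6.91% (HT1376) of all genes tested. The same median excess was 16.1% of the KU1919 level, 18.4% of SW780, 22.3% of HT1376, 32.6% of HT1197, 113% of TCCSUP and 372% of 639V. The part of another line's RNA in these libraries was not tested, and results are given below also with T24 replicate 3 alone where this is stated.

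**Figure D1:**
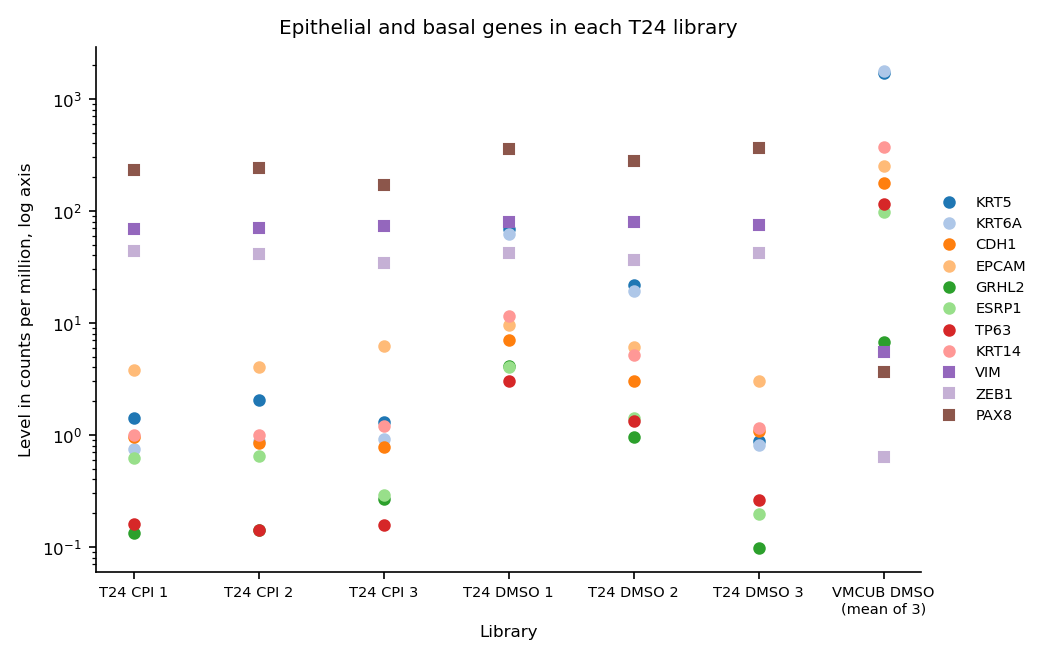
Level of 8 epithelial and basal genes (circles) and of VIM, ZEB1 and PAX8 (squares), in CPM on a log axis, in each T24 library with CPI-0209, in each T24 DMSO library and as the VMCUB DMSO mean of 3 libraries. KRT5 stood at 69.1, 21.6 and 0.882 CPM in the 3 T24 DMSO libraries, whereas VIM stood at 79.9, 79.3 and 74.7 CPM.

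With the line as the unit, no gene was called as different between T24 and the other 7 lines. Counts were summed over the 3 DMSO libraries of each line and the T24 sum was compared with the mean of the 7 others by the quasi-likelihood test of edgeR, with p-values adjusted after Benjamini and Hochberg over all genes and a threshold of 0.05. Of 21498 genes tested 0 were higher (0%) and 0 were lower (0%) in T24, with a smallest adjusted p of 0.363. At an unadjusted p under 0.05 there were 217 higher and 152 lower genes, and DESeq2 called 31 higher and 48 lower. The same edgeR test called 74 genes higher in TCCSUP, 53 in HT1376 and 0 in VMCUB when each of these was set against the rest. PAX8 had the smallest unadjusted p of the genes named below, with an edgeR log2 fold change of 5.99 (SE 0.73, edgeR adjusted p = 0.363). The median log2 fold change over all genes tested was -0.29.

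A second comparison asked whether T24 was the highest or the lowest of the 8 lines for a gene, using the spread between libraries of a line. T24 was compared with each other line by edgeR's quasi-likelihood test on the 24 DMSO libraries, and a gene was called when all 7 differences had one sign and a size of at least 2-fold and the largest of the 7 p-values passed the adjusted threshold of 0.05. T24 was highest for 169 of 18643 genes (0.907%) and lowest for 138 (0.740%). These shares are the background for the counts of list members below, and a short list with 0 calls is not set apart by them. In each T24 library all 169 lay above each of the 21 other libraries, and 134 of the 138 lay below. Over all genes tested, 789 (4.23%) lay above and 434 (2.33%) below in this way. With T24 replicate 3 alone the rule gave 150 highest genes (0.761% of 19713 tested) and 153 lowest (0.776%), of which 143 and 106 were shared with the calls from the 3 libraries. T24 had the fewest calls of the 8 lines in both directions. The others had 285 (VMCUB) to 780 (HT1197) highest genes and 193 (KU1919) to 522 (HT1197) lowest. The typical spread between replicates, as the median SD of log2 CPM over genes, was 0.115 in T24 and 0.123 in VMCUB, and it ran from 0.052 to 0.0829 in HT1197, HT1376, KU1919, SW780, 639V and TCCSUP.

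**Figure D2:**
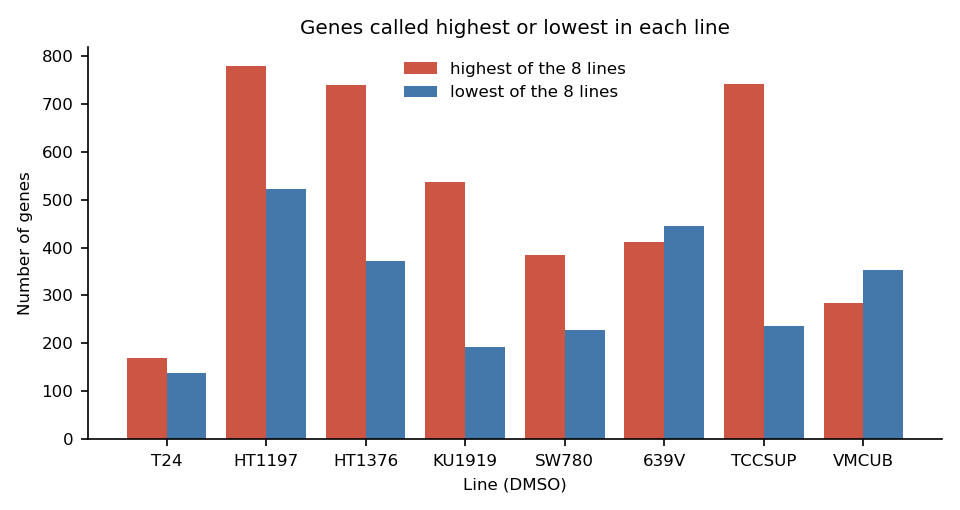
Number of genes called highest (red bars) or lowest (blue bars) of the 8 lines in the DMSO libraries, by line. T24 had 169 and 138, the fewest in each direction, against 780 and 522 in HT1197.

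Across the 18643 genes T24 was nearest to 639V and VMCUB in rank order of levels, with a Spearman correlation of log2 CPM of 0.917 and 0.915, and farthest from HT1197 and HT1376, with 0.851 and 0.848. These values are a description over genes, which are not independent replicates, and all lines share the same set of common genes. They include the T24 libraries with the excess of epithelial genes described above, most of which were far higher in VMCUB. How much this excess adds to the likeness of T24 and VMCUB was not tested. T24 was 2-fold higher for 2553 genes and 2-fold lower for 2934 when set against 639V. Set against HT1376 it was higher for 3212 and lower for 4447.

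The genes that set T24 highest by the widest margin included a transcription factor and an RNA-binding protein that are known from the kidney. PAX8, a paired-box factor of thyroid and kidney (chromosome 2, 113215997 to 113278950, minus strand, GRCh38), had 359, 281 and 363 CPM in the 3 T24 libraries, against 1.09, 3.81 and 10.5 CPM as the lowest, median and highest of the 21 other libraries. No other library came near the lowest T24 library. The gap, which is the log2 difference between T24 and the nearest other line, was 5.02 for PAX8 (SE 0.14, nearest line 639V, adjusted p = 2.99e-17). BICC1, an RNA-binding protein whose loss gives cystic kidneys in mice, had 75.4, 75.2 and 83.5 CPM in T24, against 0.109, 0.605 and 3.94 CPM elsewhere. PAX2, the paired-box factor closest to PAX8, was not part of this pattern: its T24 mean was 0.0109 CPM, and 639V had 13.8 CPM. Per length of exon, PAX8 stood at 45.2 RPKM (CPM per kilobase of exon) in T24 and BICC1 at 11.9.

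Of 74 developmental transcription factors outside the HOX clusters, chosen as a list, 3 were highest in T24, among them PAX8 and FOXL1, and 1 lowest (GATA2). Among all genes tested the shares were 0.907% and 0.740%. The list's median log2 fold change against the mean of the other lines was -1.31. A single high line can raise that mean, here and in the list medians below. By the mean log2 CPM of the list T24 ranked 4 of 8, at 1.79, against 1.44 to 1.99 in the other lines. FOXL1, a forkhead factor, had 49.2, 51.7 and 47.3 CPM in T24, against up to 24.4 CPM in KU1919 as a line mean. Its gap of 1.02 lay just inside the 2-fold limit, and its call was lost with T24 replicate 3 alone (0.97). GATA2, a factor of blood and urogenital development, had 7.37, 6.89 and 5.52 CPM in T24, against 17.9, 86.8 and 434 CPM over the other libraries, and its gap was -1.48 (SE 0.08, adjusted p = 1.01e-12). Among 37 HOX genes, which set position along the body axis, T24 was the highest line for 11 and the lowest for 0, whereas over all 18643 genes it was highest by rank for 1507 and lowest for 1644. HOXD1 alone of them passed the 2-fold rule, with 9.3, 9.96 and 8.66 CPM in T24, against 0, 1.08 and 2.77 CPM elsewhere. HOXA5, HOXD4 and HOXD8 lay above all 21 other libraries without passing it. The HOX list had a median log2 fold change of 0.68, and 31 of its genes reached 1 CPM in T24, against 3 to 36 in the other lines. By the mean log2 CPM of the list T24 ranked 3 of 8, at 2.67, after 639V (3.21) and TCCSUP (2.76).

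Several genes of matrix, adhesion and surface were among the 12 with the widest margin. CDH4, the cadherin known from retina, had 139, 105 and 131 CPM in T24, against 0.0294, 0.876 and 4.28 CPM over the other libraries. COL8A1, a short-chain collagen, had 112, 118 and 120.4 CPM in T24 and at most 4.18 CPM as a line mean elsewhere, in TCCSUP. MAMDC2, a secreted proteoglycan, had 58.9, 65.4 and 62.1 CPM in T24, against 0.058, 0.41 and 4.59 CPM. Each T24 library was above each of the others for these 3 genes, by gaps of 4.94, 4.80 and 3.94 on the log2 scale (adjusted p = 1.34e-16, 3.1e-18 and 1.02e-16). Of 28 collagen genes 2 were highest in T24, COL8A1 and COL6A2, and 0 lowest, where 0.907% and 0.740% of all genes tested were. COL6A2, a chain of microfibrillar collagen, had 192, 154 and 175 CPM in T24, against 0.113, 5.98 and 63.4 CPM elsewhere. The fibrillar collagen COL1A1 had 3.8, 2.89 and 3.46 CPM in T24, below all 21 other libraries, of which the lowest had 4.38 CPM.

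Other genes of the widest margin have roles outside the epithelium of the bladder. SHISA3, which in frog embryos holds Wnt and FGF receptors in the endoplasmic reticulum, had 29.1, 29.3 and 27.6 CPM in T24, against 0, 0.029 and 0.254 CPM over the other libraries. WSCD1, a membrane protein with a WSC domain, had 239.7, 198 and 242 CPM in T24 and up to 7.75 CPM in KU1919. LAPTM5, a lysosomal membrane protein known from blood cells, had 69.7, 62.6 and 71.9 CPM in T24, against 0.0216, 1.11 and 4.61 CPM elsewhere. For these 3 genes the groups did not overlap and the gap was 7.40, 4.88 and 4.01 (adjusted p = 7.34e-14, 4.7e-13 and 3.51e-14). KRTAP2-4 and KRTAP2-3, near neighbours on chromosome 17 that code for hair keratin-associated proteins, had T24 means of 33.4 and 98.5 CPM, against at most 0.117 and 6.17 CPM as line means elsewhere. They belong to a family of near-identical copies, so the split of reads between the pair is uncertain.

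**Figure D3:**
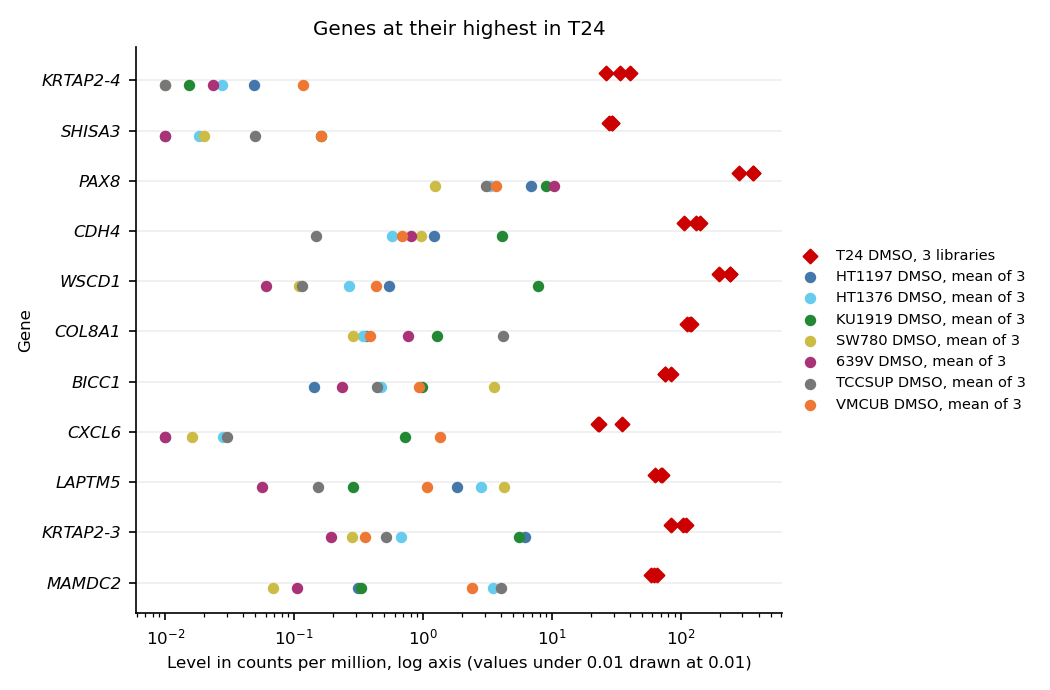
Level in CPM, on a log axis, of 11 of the 12 genes called highest in T24 with at least 10 CPM and the widest gap to the nearest line. Red diamonds are the 3 T24 DMSO libraries and circles are the DMSO means of the other 7 lines. PAX8 lay at 359, 281 and 363 CPM in T24, against a highest line mean of 10.3 CPM in 639V.

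T24 was the highest line for CXCL1, CXCL6 and CXCL8, which code for neutrophil-attracting chemokines, whereas CXCL2, CXCL3 and CXCL5 of the same group were not called. Chemokines of the CXCL1 to CXCL8 group lie side by side on chromosome 4, act on the receptors CXCR1 and CXCR2, and are known as targets of the inflammatory factor NF-kappaB, which IL1B switches on. The promoters of the 3 that were called highest in T24 are shown here because each carries the same 9-base run, which is printed in capitals. They are RefSeq windows of 300 bases on GRCh38.p14, plus strand, from 250 bases before to 50 after the start of the gene: chr4:73869143-73869442 for CXCL1, chr4:73836428-73836727 for CXCL6 and chr4:73740319-73740618 for CXCL8.
CXCL1: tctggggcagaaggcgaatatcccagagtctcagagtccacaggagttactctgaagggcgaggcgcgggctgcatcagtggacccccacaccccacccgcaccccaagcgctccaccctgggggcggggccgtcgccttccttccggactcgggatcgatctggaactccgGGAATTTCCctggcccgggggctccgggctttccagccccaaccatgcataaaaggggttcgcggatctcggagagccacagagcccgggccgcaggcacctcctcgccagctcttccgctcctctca
CXCL6: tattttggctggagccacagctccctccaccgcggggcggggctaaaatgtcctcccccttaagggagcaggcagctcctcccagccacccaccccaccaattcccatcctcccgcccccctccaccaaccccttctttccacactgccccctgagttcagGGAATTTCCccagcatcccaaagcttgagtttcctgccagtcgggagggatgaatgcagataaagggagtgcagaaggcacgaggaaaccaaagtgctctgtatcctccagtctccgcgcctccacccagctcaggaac
CXCL8: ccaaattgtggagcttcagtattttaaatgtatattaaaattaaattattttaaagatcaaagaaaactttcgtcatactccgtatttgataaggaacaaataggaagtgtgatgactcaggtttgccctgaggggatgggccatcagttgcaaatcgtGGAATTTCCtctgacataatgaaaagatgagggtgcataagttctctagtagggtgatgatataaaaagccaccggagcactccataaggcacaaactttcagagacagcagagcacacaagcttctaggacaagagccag
The run GGAATTTCC, which has the form of an NF-kappaB site, was searched on both strands, as GGAATTTCC and GGAAATTCC. It began 78, 89 and 91 bases before the gene start in CXCL1, CXCL6 and CXCL8. It was found in 162 of 35114 promoters of the same length (0.461%). The run was set by hand and the promoters are shown for carrying it, so this share is no test of them. CXCL5, CXCL2 and CXCL3 of the same cluster also hold the run, and IL1B, IL6 and CCL20 do not hold these letters in this window. Bases around the run are alike in CXCL1, CXCL2 and CXCL3, and in CXCL5 and CXCL6, so these matches are not independent. A match is a description of the sequence and shows no binding in these cells.

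CXCL1 (chromosome 4, 73869393 to 73871242, plus strand) had 112, 134 and 106 CPM in the 3 T24 libraries, against 0, 0.704 and 10.9 CPM as the lowest, median and highest of the 21 other libraries. CXCL6 had 23, 35.2 and 22.9 CPM in T24, against 0, 0.0275 and 1.74 CPM elsewhere, and CXCL8, also called interleukin 8, had 44, 77.7 and 47.8 CPM, against 0.0216, 1.31 and 13.5 CPM. In each of the 3 genes all T24 libraries were above all others. The nearest line was VMCUB for CXCL1 and CXCL6, with gaps of 3.78 (SE 0.14, adjusted p = 2.72e-15) and 4.37 (SE 0.23, adjusted p = 7.03e-12). For CXCL8 it was HT1376, with 2.05 (SE 0.17, adjusted p = 3.89e-09). IL1B, the cytokine interleukin 1 beta, had 67.7, 66 and 67.5 CPM in T24, against 0.108, 6.06 and 22.5 CPM, a gap of 1.55 (SE 0.07, adjusted p = 4.32e-14). CXCL5 had 23.2, 31.5 and 22.7 CPM and IL11 18.2, 20.3 and 17.9 CPM in T24, above all 21 other libraries, of which the highest held 14.2 and 16.6 CPM, but neither reached the 2-fold rule. CXCL2, with the same run in its promoter, had 4.32, 6.82 and 3.66 CPM in T24, against line means of up to 40.9 CPM in HT1376. CXCL3 had a T24 mean of 3.88 CPM, against 3.73 CPM in VMCUB, and the difference did not pass the test (adjusted p = 1).

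Of 35 cytokine and chemokine genes tested, 4 were highest in T24 and 0 lowest, where 0.907% and 0.740% of all genes tested were. T24 ranked 1 of 8 by the mean log2 CPM of these cytokine genes, at 1.74, against 0.37 to 1.56 in the other lines. Their summed level was 489, 575.9 and 476.6 CPM in the T24 libraries, against 110.2 to 450.1 CPM as summed line means of the other lines. The median log2 fold change of the list was -0.78. In the T24 libraries with CPI-0209 the levels were 106, 109 and 146 CPM for CXCL1, 35.1, 35.4 and 51 CPM for CXCL6 and 70.4, 78.4 and 77.7 CPM for IL1B.

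HRAS, the gene of the RAS protein that T24 is known for, was highest in T24 (chromosome 11, 532242 to 537287, minus strand). It had 302, 323 and 272 CPM in the 3 T24 libraries, against 39.8, 58.1 and 179 CPM over the other 21. The T24 libraries were above all others, and the line means of VMCUB (153 CPM) and HT1376 (136 CPM) came next. The gap to VMCUB was 1.00 (SE 0.09, adjusted p = 2.75e-08), at the edge of the 2-fold rule. It was 0.89 with T24 replicate 3 alone, 0.96 without T24 replicate 2 and 0.99 without VMCUB replicate 3, all under the limit, and the call was also lost without T24 replicate 1 (1.00 as rounded). Against the mean of the other lines the log2 fold change was 1.94 (SE 0.64, unadjusted p = 0.0152). Of 32 RAS genes and genes that ERK signalling switches on, 1 was highest (HRAS) and 1 lowest (MRAS, a related GTPase), with a list median of 0.09. Among all genes tested the shares were 0.907% and 0.740%. MRAS had 0.838, 0.601 and 0.294 CPM in T24, against 2.17, 24.2 and 52.6 CPM elsewhere. With T24 replicate 3 alone 0 of this list were highest and 2 lowest, MRAS and EGR1, a zinc finger factor that ERK induces. SPRED1, which holds back RAS signalling, had 108, 134 and 119 CPM and RRAS2, a RAS-related GTPase, 221, 262 and 224 CPM, above all 21 others but within 2-fold of the nearest line. DUSP6, a phosphatase that ERK induces, had a T24 mean of 79.8 CPM, rank 4 of 8.

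Signalling genes gave calls in both directions. Among all genes tested, 0.907% were highest in T24 and 0.740% lowest. Of 38 Wnt pathway genes 4 were highest in T24 and 1 lowest, with a list median of -1.31. FZD8, a Wnt receptor, had 57.4, 52.4 and 53.4 CPM in T24, against 0.41, 3.08 and 6.71 CPM elsewhere (gap 3.09, adjusted p = 3.12e-16). DKK3, a secreted glycoprotein of the Dickkopf family, had 569.8, 514 and 545 CPM, against 0.202, 51.6 and 229 CPM. WNT5B, a ligand, had 39.6, 38.9 and 36.3 CPM, against 0.066, 0.635 and 15 CPM, and LGR5, a receptor for R-spondins, had 3.5, 4.39 and 4.74 CPM, against 0, 0.0578 and 1.31 CPM. WNT10B was the ligand called lowest, with 0.15, 0.185 and 0.0981 CPM in T24, a level of few counts, and its call was lost with T24 replicate 3 alone, where WNT10A, another ligand, was called lowest. Of 37 TGF-beta and BMP pathway genes, 2 were highest and 0 lowest, and with T24 replicate 3 alone BMP6, a ligand, was called lowest. INHBA, the subunit of activin A, had 22.9, 31.3 and 26.8 CPM in T24, against 0.116, 1.02 and 8.47 CPM. FGF5, a fibroblast growth factor, had 48.5, 57.5 and 50.4 CPM in T24, against 0.0251, 0.265 and 13.9 CPM (gap 1.94, adjusted p = 1.06e-09). VEGFA, the main growth factor of blood vessels, was lowest in T24, with 28.1, 24.4 and 24 CPM, against 54.8, 134 and 641 CPM. EPHB1 and TIE1, both receptor tyrosine kinases, were highest at means of 5.36 and 4.64 CPM. VEGFA lost its call when libraries were scaled by their totals alone, with a gap of -0.89.

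Of the 138 genes called lowest in T24, 85 had a T24 mean under 1 CPM and 9 had at least 10 CPM, whereas 104 of the 169 called highest had at least 10 CPM. KCTD15, an adaptor protein known to hold back the factor AP-2 (chromosome 19, 33795933 to 33815763, plus strand), had 0.602, 0.324 and 0.131 CPM in T24, against 9.28, 35.1 and 88.9 CPM over the other libraries, a gap of -4.65 (SE 0.18, nearest line VMCUB, adjusted p = 4.72e-15). EFNA1, a membrane ligand of Eph receptors, had 1.33, 0.647 and 0.686 CPM in T24, against 6.42, 16.8 and 131 CPM. MBNL3, a splicing regulator, had 1.72, 0.809 and 0.262 CPM, against 7.66, 25.4 and 34 CPM, and ZNF385A, a zinc finger protein that binds RNA, had 2.56, 1.04 and 0.588 CPM, against 14.9, 81.6 and 124 CPM. All 3 T24 libraries were below all others in these 4 genes, and KCTD15, ZNF385A and MBNL3 followed the order of the epithelial genes, with replicate 1 highest and replicate 3 lowest. They were also called with T24 replicate 3 alone. PWWP2B, a chromatin-binding protein, had a T24 mean of 1.25 CPM, against at least 10 CPM as a line mean elsewhere. TBC1D3L, with 0.945, 0.763 and 0.0981 CPM in T24 and at least 12.5 CPM elsewhere, belongs to a family of near-identical copies on chromosome 17, so its counts are uncertain.

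Of the 12 genes called lowest with the widest margin, SCD, ACOT13 and MYLIP act in lipid metabolism. SCD, the desaturase that makes monounsaturated fatty acids (chromosome 10, 100347124 to 100364834, plus strand), had 163, 117 and 107 CPM in T24, against 832, 1206 and 2448 CPM over the other libraries. The highest T24 library was far below the lowest other library, and the gap was -2.81 (SE 0.12, nearest line TCCSUP, adjusted p = 3.32e-14). ACOT13, an acyl-CoA thioesterase, had 4.02, 5.41 and 4.22 CPM in T24, against 16.3, 22 and 37.5 CPM, and MYLIP, a ubiquitin ligase that limits the uptake of lipoproteins, had 3.33, 2.52 and 3.07 CPM, against 9.15, 19 and 94.4 CPM. Of 24 genes of cholesterol synthesis and uptake 0 were lowest and 0 highest by the 2-fold rule, yet T24 ranked 8 of 8 by their mean log2 CPM, at 5.84, against 5.85 to 6.99 in the others. The list's median log2 fold change was -0.60, against -0.29 for all genes. MRPL23, a protein of the mitochondrial ribosome, had 4.58, 3.05 and 3.2 CPM in T24, against 16.1, 34.4 and 88.1 CPM. LPAR2, a receptor for lysophosphatidic acid, had a T24 mean of 3.78 CPM, and KRCC1, a lysine-rich protein of unknown role, 2.77 CPM, against line means of at least 12.1 and 8.69 CPM elsewhere.

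**Figure D4:**
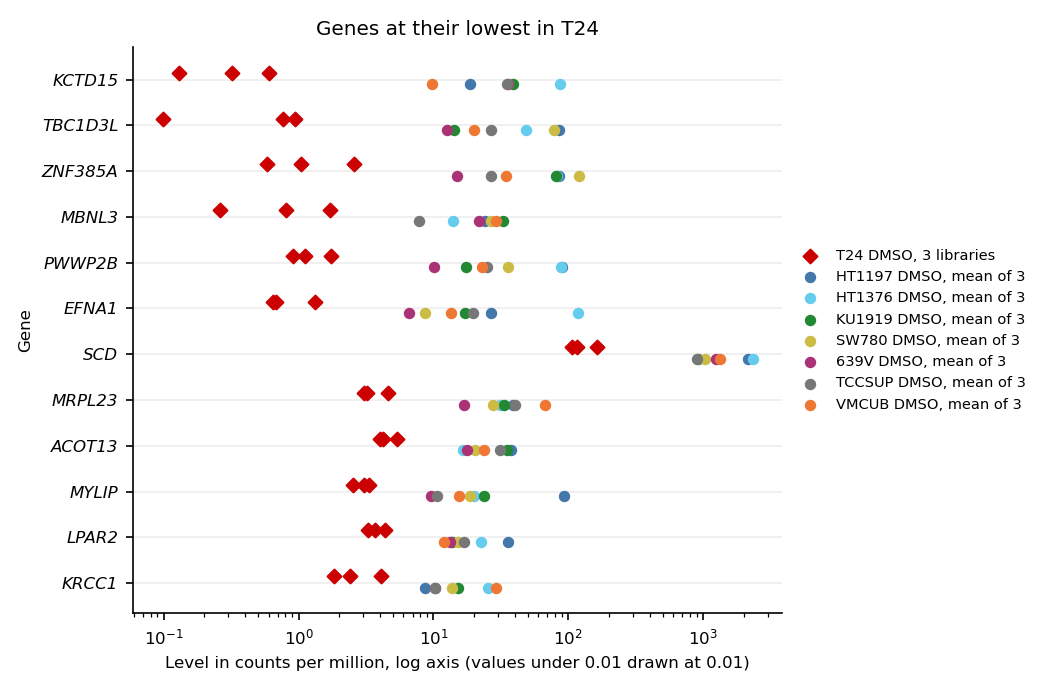
Level in CPM, on a log axis, of the 12 genes called lowest in T24 whose lowest other line had at least 5 CPM, by the gap to the nearest line. Red diamonds are the 3 T24 DMSO libraries and circles are the DMSO means of the other 7 lines. SCD lay at 163, 117 and 107 CPM in T24, against a lowest line mean of 898 CPM in TCCSUP.

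Genes of proliferation and of the cell cycle gave no T24 call in their 2 lists. RB1, the retinoblastoma gene, had 98.4, 116 and 106 CPM in T24, above all 21 other libraries, whose highest held 81 CPM, at a gap of 0.48 that missed the 2-fold rule. CDKN2A, which codes for the cell cycle inhibitors p16 and p14ARF, had a T24 mean of 109.5 CPM, between 0.277 CPM in KU1919 and 703 CPM in VMCUB. EZH2 had a T24 mean of 74 CPM, rank 5 of 8. Of 40 proliferation genes 0 passed the 2-fold rule in either direction. T24 was the highest line for 11 of them and second for 13, and 9 lay above all 21 other libraries, where 4.23% of all genes tested did. Examples were TPX2, a spindle factor, with 624, 620.5 and 608 CPM in T24, against 214, 334 and 461 CPM, and RRM2, a subunit of ribonucleotide reductase, with 457, 521 and 465 CPM, against 95.3, 248 and 369 CPM. The list's median was 0.42.

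T24 had keratins of simple epithelia and ranked last or next to last for most of the epithelial junction and identity genes. KRT7 had 3087, 2789 and 2667 CPM in the T24 libraries, against 35, 3398 and 6746 CPM as the lowest, median and highest of the others, KRT8 had a T24 mean of 1353 CPM, KRT18 of 1095 CPM and KRT19 of 489 CPM. The labelled carcinoma type was checked against urothelial and epithelial markers, with a mixed outcome. These 4 keratins, PPARG, FOXA1 and GATA3 were present. In T24 replicate 3, KRT5 had 0.882 CPM, TP63 0.262 CPM and GRHL2 0.0981 CPM, and UPK2 had a T24 mean of 0.167 CPM. CDH1, the adhesion protein E-cadherin, had 6.96, 3 and 1.08 CPM in T24, rank 7 of 8, against line means of 0.731 CPM in 639V, 54.5 CPM in TCCSUP and 179 to 1568 CPM in the other 5 lines. T24 replicate 3 alone, at 1.08 CPM, was near 639V. EPCAM, another surface adhesion protein, had 9.47, 6.12 and 3.04 CPM in T24, rank 6 of 8. Of 35 epithelial junction and identity genes, 2 were lowest in T24, 0 were highest, T24 was last for 6 and seventh for 15, and the median log2 fold change was -4.30. Over all 18643 genes T24 was last for 1644, seventh for 2312 and called lowest for 138 (0.740%), and the median log2 fold change was -0.29. OCLN, a tight junction protein, had 4.21, 6.24 and 4.51 CPM in T24, against 11.7, 35.5 and 62.4 CPM (gap -1.24, adjusted p = 5.23e-10). GRHL1, an epithelial factor of the grainyhead family, had 1.52, 1.76 and 1.8 CPM, against 3.75, 14 and 66 CPM (gap -1.27, adjusted p = 2.28e-09). These 2 genes did not follow the order of replicates seen for KRT5. With T24 replicate 3 alone, 5 of the 35 genes were lowest, T24 was last for 15 and seventh for 15, and the median log2 fold change was -5.49. Over all 19713 genes tested in that way it was last for 2478 and seventh for 2540, with a median of -0.38. The 3 genes added were AP1M2, CLDN7, a claudin, and CRB3, a polarity protein.

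Luminal and basal genes gave no T24 call. Of 26 luminal genes and 36 basal and squamous genes, 0 were highest and 0 lowest in T24, with medians of -3.80 and -4.60, or -4.66 and -6.94 with T24 replicate 3 alone. FOXA1 and PPARG, both luminal factors, were present at T24 means of 70.3 and 51.6 CPM, GATA3 at 18.3 CPM, and UPK2, a uroplakin, at 0.167 CPM, rank 8 of 8. ERBB3, a receptor of luminal cells, had 3.27, 1.78 and 2.52 CPM in T24, against line means of 1.78 CPM in TCCSUP to 118 CPM in HT1197. The basal factor TP63 had a T24 mean of 1.54 CPM and KRT14 of 5.92 CPM, and both carry the spread between T24 libraries described above. Leaving out T24 replicates 1 and 2 moved the FGFR3 gap past the rule: replicate 3 held 0.359 CPM of this receptor gene, against a lowest line mean of 1.47 CPM in TCCSUP, and CDH3, a basal cadherin, was called lowest there as well.

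The mesenchymal genes VIM and ZEB1 were present in T24 at rank 2 of 8, with 639V as the highest line for each. VIM, the intermediate filament vimentin, had 79.9, 79.3 and 74.7 CPM in T24, against 537 CPM in 639V and line means of at most 5.48 CPM in the other 6. ZEB1, a repressor of CDH1, had 41.7, 36.8 and 42.3 CPM in T24, against 43.3 CPM in 639V, 22.2 CPM in TCCSUP and at most 2.84 CPM in the others. T24 was not separated from its nearest line for ZEB1, where the largest of the 7 edgeR p-values was 0.728 after adjustment. ZEB2, a related repressor, had 19.5, 19.1 and 22 CPM, rank 2 after TCCSUP (57.2 CPM). CDH2, N-cadherin, had 138, 136 and 142 CPM, rank 2 of 8, against 246 CPM in TCCSUP, 131 CPM in HT1197 and 113 CPM in 639V. FN1, fibronectin, had 2504, 1647 and 2614 CPM, also rank 2, against 15220.0 CPM in HT1197, 1580.0 CPM in TCCSUP and 41.1 CPM in 639V. SNAI2, a repressor also used by basal cells, had a T24 mean of 22.7 CPM, rank 6 of 8. Of 32 mesenchymal genes 1 was called highest, FOXC2, a forkhead factor, with 35.3, 22 and 30.9 CPM in T24, against 0, 0.263 and 12 CPM (gap 1.60, adjusted p = 0.000153). AXL, a receptor kinase, CCN1 and CCN2, both matricellular proteins, and MSN, a cortex protein, lay above all 21 other libraries within 2-fold of the nearest line. The list's median was -0.20, and it was -0.24, with the same gene called, with T24 replicate 3 alone. Of 28 genes of caveolae and contractile cytoskeleton 1 was highest, CAVIN3, a coat protein of caveolae, with 153, 191 and 132 CPM in T24, against 0.0387, 3.73 and 42.9 CPM.

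**Figure D5:**
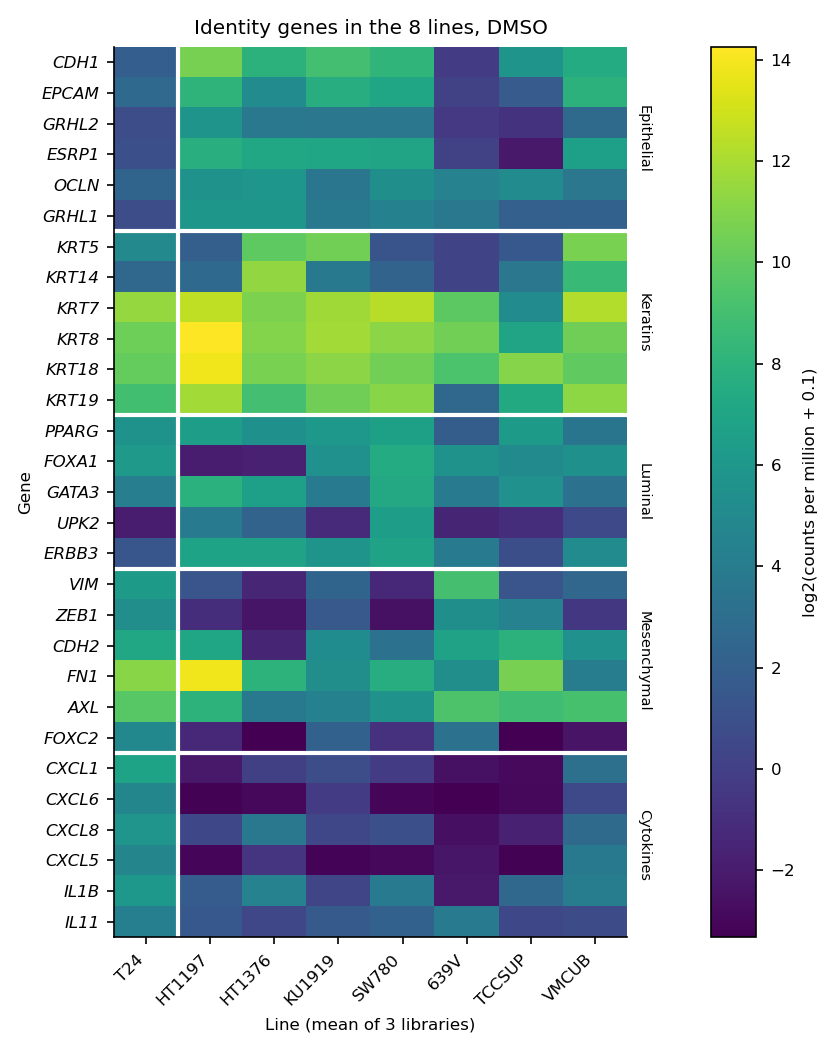
Mean level of 29 identity genes in the DMSO libraries of T24 (left column) and the other 7 lines, as log2(CPM + 0.1), in 5 groups. T24 is dark for the epithelial genes, where CDH1 averaged 3.68 CPM, and bright for the cytokines, where CXCL1 averaged 117 CPM.

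Lists of immune and stress genes held 0 to 2 T24 calls each, where 0.907% of all genes tested were called highest and 0.740% lowest. Of 14 MHC class II genes 1 was highest, HLA-DPB1, with 26.1, 28.4 and 24.8 CPM in T24, against 0, 0.197 and 3.57 CPM, and its partner HLA-DPA1 had 7.45, 7.67 and 7.06 CPM, above all 21 others within 2-fold of KU1919. HLA-C, a class I gene, was lowest, with 42.2, 35.4 and 30.5 CPM in T24, against 70.1, 107 and 946 CPM, and was the only call among 19 class I presentation genes. HLA genes are polymorphic, so their counts are uncertain. Of 33 interferon-stimulated genes 0 were called. Of 27 genes of amino acid and unfolded protein stress 2 were lowest and 0 highest. They were ASNS, asparagine synthetase, with 17.5, 18.5 and 14 CPM in T24, against 34.3, 107 and 167 CPM, and ATF3, a stress factor, with 2.83, 2.15 and 2.35 CPM, against 4.16, 19.4 and 364 CPM. With T24 replicate 3 alone DDIT4, an inhibitor of mTORC1 signalling, was called lowest as well. ABCB1, the drug efflux pump, was highest in T24, with 30.9, 28.3 and 33.5 CPM, against 0, 0.569 and 2.69 CPM, and was the only one of 35 NRF2 and xenobiotic genes to be called. DPF3, a subunit of a chromatin remodelling complex, had 39.5, 36 and 40.2 CPM, against 0.0282, 0.455 and 5.74 CPM, and was the only one of 23 SWI/SNF and KDM6 genes to be called, and MMP15, a membrane protease, was lowest among 26 pericellular proteases and inhibitors, at 10, 6.98 and 7.84 CPM, against 18.1, 42.4 and 78.7 CPM. Lists of 19 integrins, 20 cell cycle inhibitors and cyclins, 30 Polycomb subunits, 35 cancer/testis antigens and 15 housekeeping genes held 0 calls.

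Markers of other cell types gave 1 call in T24. Of 12 leukocyte, 12 fibroblast and 21 neuronal markers tested, 0 were called, and of 10 endothelial markers 1 was called, TIE1. PTPRC, the common leukocyte antigen, had a T24 mean of 0.0852 CPM, DCN, a fibroblast proteoglycan, 0.106 CPM, and VWF, the endothelial von Willebrand factor, 0.116 CPM. Other members were higher: 4 of 20 leukocyte, 3 of 14 fibroblast, 9 of 28 neuronal and 4 of 12 endothelial markers reached 1 CPM in T24. In the other lines 3 to 6, 4 to 12, 6 to 12 and 1 to 5 did. The summed levels of the 4 lists in the T24 libraries were 181.5 to 197, 174 to 209.8, 377.1 to 466.1 and 21.44 to 23.03 CPM. Summed line means of the other lines were 23.18 to 561, 22.69 to 9692, 108.9 to 1297 and 4.04 to 108.6 CPM. In bulk RNA, fewer cells that express a gene and less RNA of it per cell cannot be told apart.

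Under a rule on levels with no test, T24 alone expressed 1 gene and lacked 0. A gene counted as expressed by T24 alone at 1 CPM or more in its 3 libraries and at most 0.1 CPM as the mean of each other line. UGT2B7, an enzyme that couples glucuronic acid to steroids and drugs (chromosome 4, 69051363 to 69112987, plus strand), met it, with 3.61, 4.88 and 3.14 CPM in T24, against at most 0.0409 CPM in KU1919. The same rule gave 42 genes in HT1197, 38 in HT1376 and 4 in VMCUB. With T24 replicate 3 alone, 3 genes were expressed by T24 alone, and 11 were lacked, at or under 0.1 CPM in T24 and at 1 CPM or more in each other line. The lacked genes included PRDM1, a repressor that ends the B cell programme, at 0.2578, 0.04622 and 0 CPM in T24 replicates 1, 2 and 3, and AP1M2, a clathrin adaptor of epithelial cells, at 3.201, 1.317 and 0.06537 CPM. S1PR2, a receptor for sphingosine 1-phosphate, had 1.246, 1.41 and 0 CPM. These 3 and the other 8, IGSF9, GPR158, GASK1B, ZNF114, MAP10, INO80B-WBP1, TBC1D3L and SPDYE10, were named after their values were seen, apart from TBC1D3L, and whether T24 lacks them turned on which T24 library was read.

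The T24 pattern was looked for again in the CPI-0209 libraries, which the DMSO contrasts do not use but which come from the same lines. With the line as the unit edgeR called 0 higher and 0 lower of 22321 genes (smallest adjusted p 0.234), with 238 higher and 231 lower at an unadjusted p under 0.05. By the rule on the highest and lowest line, T24 was highest for 165 of 19350 genes (0.853%) and lowest for 184 (0.951%), of which 123 and 78 were called in DMSO too. The T24 mean was above all 7 line means for 164 of the 169 genes called highest in DMSO and below for 131 of the 138 called lowest. PAX8 had 232, 240.3 and 169 CPM in T24 with CPI-0209. Within T24, edgeR called 1452 of 15492 genes higher (9.37%) and 144 lower (0.930%) with CPI-0209 than with DMSO. The spread between the T24 DMSO libraries enters this contrast. TP63 was among the lower genes, though DMSO replicate 3, at 0.262 CPM, lay near the CPI-0209 libraries, at 0.161, 0.141 and 0.156 CPM. Without DMSO replicate 1, 2 or 3 there were 48, 76 and 124 lower genes. The share of the 144 that this spread accounts for was not tested. Among the 103 lowest genes that were tested there, 35 were higher and 0 lower, and among the 169 highest genes 24 were higher and 10 lower. These counts share the T24 DMSO libraries that chose the genes and are given as a description. KCTD15 had 7.64, 7.94 and 7.34 CPM with CPI-0209, against 0.602, 0.324 and 0.131 CPM with DMSO. GATA2 had 32.4, 32.1 and 33.3 CPM, against 7.37, 6.89 and 5.52 CPM, and LGR5 had 33.2, 25.3 and 29.9 CPM, against 3.5, 4.39 and 4.74 CPM.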

How the data were processed

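Gene counts of 48 libraries (8 lines, DMSO and CPI-0209, 3 each) were taken as deposited by the authors, as whole numbers for 35535 genes. Per the submitters' processing notes the tools were STAR 2.7.3a and RSEM 1.3.1 on hg38; how whole numbers were reached, the annotation and the use of strand in counting are not given in the sources used here. Overlapping, antisense and near-identical genes are therefore uncertain. The labels name both a TruSeq kit and a strand-specific protocol. Gene coordinates are from GENCODE 29 (GRCh38), where 35497 identifiers matched.

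edgeR 4.0.16 (R 4.3.3) was used with trimmed-mean scaling, its expression filter and the quasi-likelihood test, and DESeq2 1.42.0 as an alternative. The line-unit fit assumes that the single T24 sum varies like the others. Genes were named by rule: 26 given always, the 12 highest with 10 CPM or more in T24 and the 12 lowest with 5 CPM or more in each other line, both by gap, and up to 4 per list. Genes outside it (such as PAX2, KRT6A, CXCL5, COL1A1, FGFR3, ZEB2 and TPX2) were named after their values were seen, and some genes that the rule names are not reported here. Members and 33 gene lists were chosen with earlier results of these data known, and calls give no independent support for them.

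Both tests were tested on simulated counts with known changes. The line-unit test missed most of the smaller known changes there, and most of the lowered genes at every size tried, so a count of 0 does not show that lines are alike. The rule on the highest and lowest line recovered nearly all genes set past its limit. Those genes had at least 5 CPM in the highest other line, or in the lowest other line for lowered genes, and all lines were given the same spread. Of the 138 genes called lowest, 44 reach 5 CPM in their lowest other line, and recovery below that level was not tested. Replicate numbers were not used to pair the libraries in the main fits. In 84 pairs of same-numbered libraries from different lines, correlations of their deviations ran from -0.244 to 0.59, with 10 over 0.1. Some pairs thus shared deviations, and counts with a replicate block are given below.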

Additional observations from a re-analysis of the deposited data

How the results depend on the processing

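In the comparison with the line as the unit, edgeR called 0 genes under another scaling, no filter, thinning, T24 replicate 3 alone and each left-out library or line (range 0 to 0 higher and 0 to 0 lower), and DESeq2 called 31 higher and 48 lower. With the 24 libraries as units, so that p measures the spread between libraries, 6440 were higher and 5948 lower, and 6428 and 5937 with the replicate block. There the other lines are averaged on the log scale, and 5 log2 fold changes turned sign, without and with the replicate block: CAV1 to 0.15 and 0.15, CDKN2A to 1.83 and 1.82, FN1 to 3.30 and 3.29, KRT7 to 0.81 and 0.81, and PPARG to 0.52 and 0.52. In the CPI-0209 libraries leaving out 1 line gave 0 to 1 higher genes (1 without KU1919) and 0 to 0 lower.

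The 169 highest and 138 lowest genes became 73 and 40 with a 4-fold minimum and 648 and 328 with no minimum fold, and 168 and 138 with the replicate block. Leaving out 1 line, so that 6 others are compared, gave 188 to 255 highest genes (255 without TCCSUP) and 164 to 295 lowest (295 without 639V). Leaving out 1 library gave 162 to 185 highest and 120 to 157 lowest. Of 57 named calls, 53 held when scaled by library totals and 55 with T24 replicate 3 alone. ASNS lost its call without T24 replicate 3 (-0.97) and HLA-C likewise (-0.99). ATF3 lost it without T24 replicate 2 (-0.92), KU1919 replicate 1 (-0.84) or 639V replicate 3 (-0.99), and FOXL1 without KU1919 replicate 3 (0.98) or T24 replicate 2 (0.99).

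The 1 gene expressed by T24 alone became 3 at limits of 2 and 0.2 CPM, 2 when scaled by library totals and 3 with T24 replicate 3 alone, and 1 to 4 over left-out lines and libraries. The 0 lacked became 1 at 2 and 0.2 CPM, 11 with T24 replicate 3 alone, and 0 to 3 over left-out lines and libraries (3 without T24 replicate 1). For T24 with CPI-0209 against DMSO, the 144 lower genes became 576 with DESeq2 and 26 with the replicate block (1019 higher). Leaving out 1 T24 library gave 905 to 1677 higher and 31 to 188 lower, with 31 lower and 905 higher without CPI-0209 replicate 2, 43 and 964 without CPI-0209 replicate 1, 48 lower without DMSO replicate 1 and 76 without DMSO replicate 2. The cause of these changes was not tested. Levels under about 0.1 CPM rest on a few counts per library.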

Other observations

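Further genes of the 2 sets called in T24 are given here as values, chosen after their values were seen. JUNB, a subunit of AP-1, had 33.9, 34.2 and 24.3 CPM in the 3 T24 libraries, against 80.9, 176 and 683 CPM as the lowest, median and highest of the 21 other libraries (gap -1.56, edgeR adjusted p = 1.61e-11). BTG2, an antiproliferative gene, had 4.58, 4.28 and 3.69 CPM in T24, against 11.6, 17.5 and 167 CPM. EGR1, a zinc finger factor, was not called with the 3 T24 libraries. It had 57.6, 43.6 and 44.1 CPM in T24, below all 21 other libraries, whose lowest had 88.3 CPM, but within 2-fold of 639V. SREBF1, the regulator of lipid synthesis that switches on SCD, had 102, 75.9 and 80 CPM in T24, against 195, 288 and 627 CPM (gap -1.20, edgeR adjusted p = 5.06e-10). NOTCH3, a receptor, had 0.344, 0.254 and 0.327 CPM in T24, against at least 0.967 CPM in each other library.

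Among the genes called highest were several at high levels. CLDN11, a claudin of myelin and testis, had 548, 526 and 517 CPM in T24, against 0.497, 1.91 and 105 CPM (gap 2.45, edgeR adjusted p = 4.14e-14). STMN3, a stathmin of neurons, had 384, 391 and 362 CPM, against 1.6, 5.83 and 58.1 CPM. PTX3, a secreted pentraxin of innate immunity, had 252, 284 and 239 CPM, against 0.0845, 3.42 and 62.6 CPM. The blood-cell transcription factors FLI1, LYL1 and PAX5 had T24 means of 91.1, 13.3 and 12.2 CPM, against highest line means of 12.7 CPM in HT1197, 2.31 CPM in TCCSUP and 2.35 CPM in 639V. TP73, a transcription factor of neurons and ciliated cells, had 86.4, 68 and 84.7 CPM in T24, against 0.488, 10.9 and 40.2 CPM, at the edge of the 2-fold rule (gap 1.00).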
